A study of Mus musculus with 16 samples.

Results

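In RAW 264.7 cells 5 pairs of neighbouring genes were followed, in each of which the first gene in the direction of transcription was raised by lipopolysaccharide (LPS) and the second lies behind it on the same strand. The pairs, upstream gene first, are Icam1 and Icam5, Atf3 and Fam71a, C5ar1 and C5ar2, Bzrap1 and Mpo, and Jund and Gm16486. These 10 genes, of 15877 genes tested on the array, were chosen from the array values themselves, by the response of the upstream gene to LPS and the level of the downstream gene when LPS and cordycepin were combined. For that reason every comparison of the 10 genes that involves LPS is given as a description with no test, and the test for these genes is the comparison of cordycepin with DMSO in the absence of LPS. That comparison shares its DMSO arrays with the LPS response that chose the upstream genes. Cordycepin is also part of the level that chose the downstream genes, so the test is not fully independent of the choice. The array carries 12 probes for the 10 genes, 1 for each except C5ar2 and Mpo, which have 2 each, and 10 of the 12 probes, 1 per gene, passed the filter on dim probes. The filter asked for detection above background by all 4 arrays in any 1 group, so a gene that was bright only with LPS and cordycepin passed through that group.

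RAW 264.7 is a macrophage-like line derived from a mouse tumour. Cells on one plate were pretreated for 60 min with DMSO, the solvent, or with cordycepin at 20 μM, and LPS at 1 μg/ml was then added to some of the wells for 60 min. The 4 groups were DMSO (no cordycepin, no LPS), cordycepin (no LPS), LPS+DMSO and LPS+cordycepin, all harvested 120 min after the first addition and all in low serum from the day before. Each group had 4 cultures, 1 per day, and each culture was read on 1 single-colour Agilent array, so there were 16 arrays. All groups share the same line, and no primary macrophages were on these arrays.

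Cordycepin is an analogue of adenosine that lacks the hydroxyl group to which the next nucleotide is joined, and it inhibits the addition of poly(A) tails to messenger RNA. Transcription normally ends soon after the RNA has been cut at a poly(A) signal, and RNA polymerase that is not released there can continue into the next gene on the same strand, which is called read-through. LPS acts through a Toll-like receptor and induces within minutes a wave of transcription that depends on NF-kB and AP-1. The arrays measured labelled RNA made with a primer that pairs with poly(A), and they cannot tell an RNA that began at its own gene's start from one that began at the gene before it.

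The sequences that bear on the pairs are the poly(A) signals within the probes and the promoters of the genes. The probes are 60 bases long and 5 of the 12 hold the poly(A) signal AATAAA, against 13.5% of the 21597 probes tested. The stretch of each of these 5 probes round the signal is shown 5′ to 3′ with the signal in capitals, because these letters stand shortly before the point at which many transcripts are cut. A match is a description of the probe and does not show that the signal is used. The letters are those of the array files and the positions are on mm9.
Icam5, chr9:20843448-20843477, plus strand: cccattcccttcAATAAAgtttttataaag
Fam71a, chr1:192986463-192986490, minus strand: cagtgcagtttaAATAAAggactacctg
C5ar2, first probe, chr7:16820085-16820107, minus strand: ggcatctaacaaAATAAAagaaa
Bzrap1, chr11:87599393-87599417, plus strand: acattttactatAATAAAgtctatt
Mpo, second probe, chr11:87617881-87617899, plus strand: gaggttcacactAATAAAa
Of these 5 probes 4 belong to downstream genes, and the probes of Icam1, Atf3, C5ar1, Jund and Gm16486 do not hold these letters. The variant signal ATTAAA, which 3.95% of all probes hold, is in none of the 12. Whether a probe lies in an exon or a UTR is not given here, because no annotation of mm9 was used.

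The promoters of the first 2 pairs are shown as the 250 bases before the annotated start of each gene. Within these pairs one promoter belongs to a gene raised by LPS and the other to a gene that LPS alone did not raise. Jund and Gm16486 differ in the same way, and the 2 pairs shown are those with a promoter that held a motif. The sequences are from RefSeq on GRCm38.p6, given 5′ to 3′ on the strand of the gene, with the motifs found in capitals.
Icam1, chr9:21015690-21015939, plus strand: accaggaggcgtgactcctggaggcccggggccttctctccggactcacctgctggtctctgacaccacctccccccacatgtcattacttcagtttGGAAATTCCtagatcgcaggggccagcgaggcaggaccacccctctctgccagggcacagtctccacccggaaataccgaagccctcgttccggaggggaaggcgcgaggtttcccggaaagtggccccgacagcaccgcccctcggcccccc
Icam5, chr9:21031788-21032037, plus strand: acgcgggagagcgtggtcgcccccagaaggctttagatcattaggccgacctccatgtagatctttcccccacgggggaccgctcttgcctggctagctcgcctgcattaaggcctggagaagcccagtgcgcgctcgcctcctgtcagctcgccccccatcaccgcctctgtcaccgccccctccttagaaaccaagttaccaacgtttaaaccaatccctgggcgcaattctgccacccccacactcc
Atf3, chr1:191183334-191183583, minus strand: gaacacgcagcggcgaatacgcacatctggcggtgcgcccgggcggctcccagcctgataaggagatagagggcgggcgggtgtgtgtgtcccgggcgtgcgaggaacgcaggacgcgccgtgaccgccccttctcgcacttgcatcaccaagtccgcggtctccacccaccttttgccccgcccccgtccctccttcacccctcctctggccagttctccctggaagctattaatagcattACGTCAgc
Fam71a, chr1:191164818-191165067, minus strand: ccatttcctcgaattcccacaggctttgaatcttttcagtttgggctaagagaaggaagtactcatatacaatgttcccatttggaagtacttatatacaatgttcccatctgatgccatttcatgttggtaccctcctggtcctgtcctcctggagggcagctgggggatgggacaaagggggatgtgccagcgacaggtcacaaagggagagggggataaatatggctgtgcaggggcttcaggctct
Icam1 holds the NF-kB form GGAAATTCC, which begins 153 bases before the start and which 0.286% of 32851 promoters hold. Atf3 holds ACGTCA, the reverse complement of the cyclic AMP response element core TGACGT, 8 bases before the start, a motif in 6.47% of promoters. The other motifs searched, like these on both strands, were the AP-1 motif TGANTCA (in 6.75% of promoters) and TATAAA (12.4%). None of the 4 motifs overlaps another in these windows, and the promoters of Icam5, Fam71a, C5ar1, C5ar2, Mpo, Jund and Gm16486 hold none of them in these 250 bases. A promoter of Bzrap1 was not used here.

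In the RefSeq annotation each downstream gene is the next protein-coding gene after its upstream gene, except that Icam4 lies between Icam1 and Icam5. Bzrap1 is listed there as Tspoap1 and Gm16486 as Iqcn. On mm9, which the array files use, the Icam1 probe is at chr9:20832290-20832349 and the Icam5 probe lies 11.1 kb further along the plus strand. The Atf3 probe is on the minus strand of chromosome 1 with that of Fam71a 8.0 kb behind it. The C5ar1 probe is on the minus strand of chromosome 7 with both C5ar2 probes 12.1 kb behind it, and these 2 probes overlap, so they are not independent measurements of the gene. The Mpo probes are 15.7 and 18.4 kb behind the Bzrap1 probe on the plus strand of chromosome 11, and the Gm16486 probe is 16.4 kb behind the Jund probe on the plus strand of chromosome 8.

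Between 37.1% and 51.2% of the spots of an array were well above background. Slide 1 held replicates 1 and 2 and slide 2 held replicates 3 and 4, and both slides carried all 4 groups. Of 9 macrophage marker genes 8 were well above background on all 16 arrays, the exception being Mrc1 on 11. Of 5 markers of other cell types, Cd3e and S100a8 were well above background on all arrays, Pecam1 on 10 and Col1a1 and Epcam on 1. The summed signal of these 5 markers was 9.07 to 9.94 in DMSO, 9.17 to 9.98 in cordycepin, 9.31 to 9.71 in LPS+DMSO and 9.12 to 10.57 in LPS+cordycepin on the log2 scale. Their part in the results was not tested. Levels are given below as normalized log2 intensity, and levels of different probes are not compared with each other. In these cultures a change in RNA per cell and a change in the share of cells that make it cannot be told apart.

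Among the upstream genes Icam1, whose product is an adhesion molecule that binds the integrin LFA-1 on leukocytes, was raised by LPS, and under LPS it was lower with cordycepin. It read 9.13, 9.38, 9.0 and 8.82 in DMSO and 9.53, 9.23, 9.38 and 9.36 in cordycepin. With LPS it read 11.82, 11.77, 11.78 and 11.64 in LPS+DMSO and 10.96, 11.50, 11.09 and 10.90 in LPS+cordycepin. All LPS arrays lay above all arrays without LPS, and the LPS+cordycepin arrays lay below those of LPS+DMSO without overlap. The fitted log2 change was 2.67 (SE 0.14, n = 4 per group) with LPS, a 6.36-fold rise, and -0.64 (SE 0.14) with cordycepin under LPS.

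Atf3, a transcription factor of the ATF/CREB family that LPS and stress induce, was lower with cordycepin both at rest and under LPS. Its level was 12.94, 13.59, 12.73 and 12.89 in DMSO and 12.22, 12.11, 11.85 and 12.02 in cordycepin. LPS+DMSO gave 16.25, 16.09, 16.06 and 16.26 and LPS+cordycepin 14.11, 14.33, 14.01 and 14.18. The 4 groups did not overlap. The fitted change was 3.13 (SE 0.15) with LPS, or 8.75-fold, and -2.01 (SE 0.15) with cordycepin under LPS, which is 4.03-fold lower and left the gene 4.32-fold above cordycepin alone.

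C5ar1, the classical receptor for the complement fragment C5a, was raised by LPS and varied most in cordycepin alone, with an SD of 1.4. It read 6.62, 5.39, 6.51 and 6.04 in DMSO and 9.09, 5.89, 6.41 and 7.21 in cordycepin, and was well above background on 3 of 4 arrays in both groups. It read 9.01, 8.69, 8.72 and 8.76 in LPS+DMSO and 8.13, 7.86, 7.89 and 8.12 in LPS+cordycepin. The cordycepin array of replicate 1 reached the level of the LPS arrays, and the other 3 cordycepin arrays did not. The fitted change was 2.66 (SE 0.49) with LPS and -0.80 (SE 0.49) with cordycepin under LPS, with the LPS+cordycepin arrays below all LPS+DMSO arrays.

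Bzrap1, which encodes an adaptor protein that binds the mitochondrial benzodiazepine receptor, differed from the other upstream genes in that cordycepin raised it with or without LPS. It read 8.28, 8.81, 8.22 and 8.53 in DMSO and 10.94, 11.13, 11.48 and 11.46 in cordycepin. With LPS it read 10.23, 10.29, 10.55 and 11.02 in LPS+DMSO and 11.38, 11.72, 11.76 and 11.98 in LPS+cordycepin. All arrays with an addition were above those of DMSO, and the LPS+cordycepin arrays overlapped with those of cordycepin alone. The change was 2.06 (SE 0.19) with LPS and 1.19 (SE 0.19) with cordycepin under LPS. Within slide 1 the LPS change was 1.72 and within slide 2 it was 2.41.

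Jund, a subunit of the AP-1 transcription factor, had the smallest LPS change of the 5 upstream genes. It read 12.29, 11.87, 11.99 and 12.27 in DMSO and 12.17, 11.66, 12.22 and 11.80 in cordycepin, which overlap. LPS+DMSO gave 13.33, 13.37, 13.43 and 14.19 and LPS+cordycepin 12.83, 12.41, 13.56 and 13.88, which overlap as well. The fitted change was 1.47 (SE 0.28) with LPS and -0.41 (SE 0.28) with cordycepin under LPS.

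The downstream genes had another pattern, with little or no rise with LPS alone and levels well above the other 3 groups when LPS and cordycepin were combined. Icam5 encodes telencephalin, an adhesion molecule known from neurons of the forebrain. It read 6.22, 6.40, 6.25 and 6.59 in DMSO, 6.95, 6.85, 7.26 and 7.17 in cordycepin and 5.92, 5.85, 6.09 and 6.21 in LPS+DMSO. In LPS+cordycepin it read 9.70, 9.92, 10.21 and 10.55. The LPS+DMSO arrays lay just below the DMSO arrays, and the LPS+cordycepin arrays lay above all others. Icam5 changed by -0.35 (SE 0.16) with LPS and by 4.08 (SE 0.16) with cordycepin under LPS, which is 16.9-fold.

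Fam71a, behind Atf3, was near background outside the combined treatment. Its probe was well above background on 1 array of DMSO, none of cordycepin, 1 of LPS+DMSO and all 4 of LPS+cordycepin. It read 3.81, 3.87, 5.24 and 3.35 in DMSO, 4.76, 4.82, 4.01 and 3.70 in cordycepin and 3.55, 3.76, 4.00 and 4.90 in LPS+DMSO, and these 3 groups overlap. LPS+cordycepin gave 7.25, 7.23, 7.39 and 7.76, above every other array. The change was -0.02 (SE 0.38) with LPS and 3.36 (SE 0.38) with cordycepin under LPS, and LPS+cordycepin was at least 4.92-fold higher than cordycepin alone, where the probe was not well above background. This bound sets the probe, array by array, at no less than the lowest signal that was well above background.

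C5ar2, the second receptor for C5a, which does not couple to G proteins, was detected in all groups by its brighter probe. This probe read 6.32, 6.57, 6.26 and 6.26 in DMSO, 6.71, 6.96, 6.98 and 6.95 in cordycepin and 7.21, 7.03, 6.81 and 6.79 in LPS+DMSO. In LPS+cordycepin it read 9.42, 9.72, 9.51 and 9.40, above all other arrays. Its change was 0.60 (SE 0.12) with LPS and 2.56 (SE 0.12) with cordycepin under LPS, which is 5.88-fold. The dimmer C5ar2 probe, which was not tested, was well above background on 3 arrays of LPS+cordycepin and on none of the other groups. It read 5.60, 6.29, 5.64 and 5.55 there against 3.11 to 4.04 in LPS+DMSO, at least 1.47-fold higher.

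Mpo encodes myeloperoxidase, an enzyme of neutrophil granules that is a marker of granulocyte precursors. Its brighter probe read 4.81, 5.44, 4.73 and 5.09 in DMSO, 6.99, 6.87, 7.06 and 7.24 in cordycepin and 6.12, 5.43, 5.65 and 5.98 in LPS+DMSO. In LPS+cordycepin it read 9.47, 9.55, 9.79 and 10.26. Cordycepin and LPS+cordycepin arrays were each above all arrays without cordycepin, while LPS+DMSO overlapped with DMSO. The change was 0.78 (SE 0.20) with LPS and 3.97 (SE 0.20) with cordycepin under LPS, which is 15.7-fold. The other Mpo probe, which lies nearer to Bzrap1 and was not tested, read 6.08, 7.10, 6.84 and 7.63 in LPS+cordycepin and was well above background on 3 of these arrays and on none of the other groups. It was at least 3.26-fold higher than in LPS+DMSO. S100a8, another gene of the neutrophil lineage, had a change of -0.05 (limma adjusted p = 0.965) in the same comparison. Neutrophil genes as a set were not examined, and what raised Mpo was not tested.

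Gm16486, behind Jund, was not well above background on any array of DMSO, cordycepin or LPS+DMSO. It read 3.80, 3.85, 2.24 and 3.16 in DMSO, 3.93, 3.90, 3.41 and 4.29 in cordycepin and 3.87, 4.21, 2.47 and 3.70 in LPS+DMSO. In LPS+cordycepin it read 6.92, 7.52, 7.83 and 8.33 and was well above background on all 4 arrays. The combined treatment was at least 5.43-fold above LPS+DMSO and at least 5.81-fold above cordycepin. The fitted change of 4.09 (SE 0.41) rests on values at background in LPS+DMSO, and within slides it was 3.18 and 5.00.

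**Figure D1:**
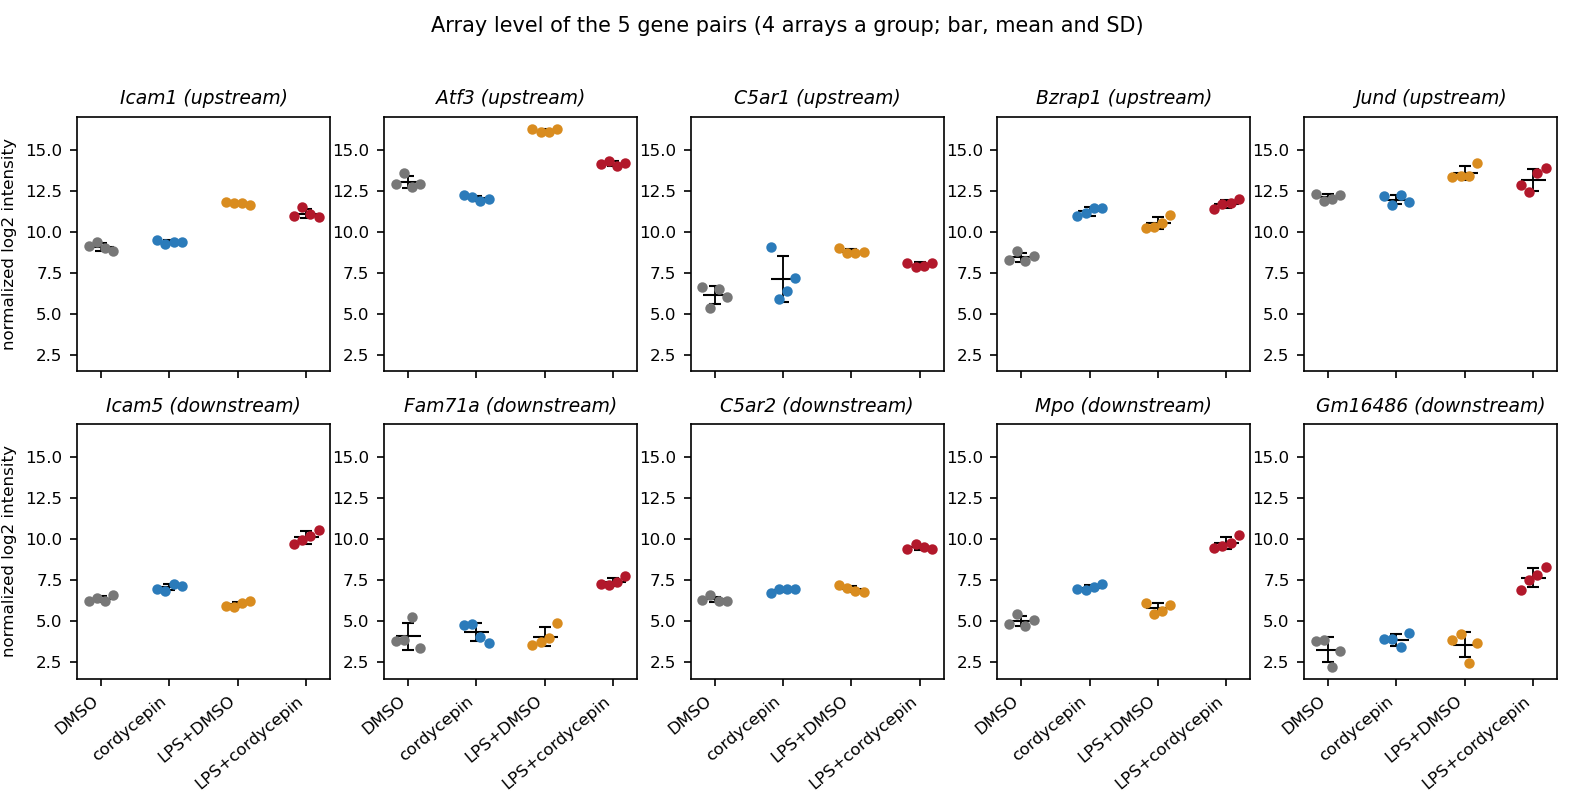
Normalized log2 intensity of the 5 upstream genes (top) and their downstream neighbours (bottom) in the 4 groups, by the probe that passed the filter. Points are the 4 arrays of a group and bars the mean and SD. The upstream genes step up with LPS in the absence of cordycepin. The downstream genes are highest on the 4 arrays of LPS+cordycepin, with Icam5 between 9.70 and 10.55. Among the upstream genes Bzrap1 also has its highest mean there, with arrays that overlap those of cordycepin alone.

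Over the pairs the change with LPS alone had a median of 2.66 for the 5 upstream genes and 0.30 for the 5 downstream genes, of which Fam71a and Gm16486 were at or near background in both groups, beside -0.04 over all probes. With cordycepin under LPS the medians were -0.64 and 3.97, beside 0.03 over all probes. All 5 upstream genes were at least 2-fold higher with LPS at an adjusted p under 0.05, as were 2.15% of all probes, and all 5 downstream genes were so with cordycepin under LPS, as were 7.11% of all probes. These counts follow from how the genes were chosen, and both comparisons share the LPS+DMSO arrays. The level in LPS+cordycepin that chose the downstream genes also sets their LPS difference in the presence of cordycepin, which is given with no test. It was 2.61 (SE 0.12) for C5ar2, 2.73 (SE 0.20) for Mpo and 3.04 (SE 0.16) for Icam5, beside the bounds given above for Fam71a and Gm16486. The same difference was 0.46 (SE 0.19) for Bzrap1 and 0.85 (SE 0.49) for C5ar1, whose LPS+cordycepin arrays overlapped with cordycepin. After another background correction (normexp), the cordycepin change under LPS was 1.26 for Fam71a and 1.52 for Gm16486, 2.70 for Mpo and 2.89 for Icam5.

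**Figure D2:**
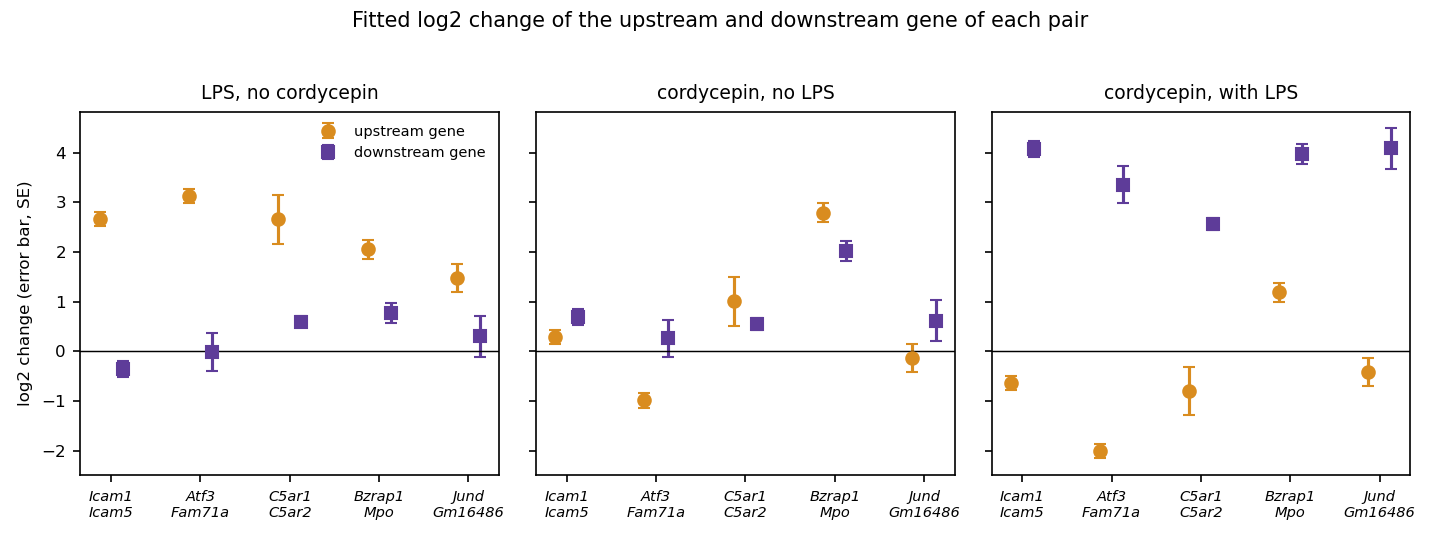
Fitted log2 change of the upstream (circles) and downstream (squares) gene of each pair for LPS against DMSO, cordycepin against DMSO, and LPS+cordycepin against LPS+DMSO, with error bars of 1 SE. The downstream genes lie between 2.56 and 4.09 in the right panel, while 4 of the 5 upstream genes are below 0 there. Of these, Atf3 alone is at least 2-fold lower, and the Jund arrays of the 2 groups overlap.

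Without LPS, Bzrap1 and Mpo rose with cordycepin. The choice of the genes did not use this comparison, but the upstream genes were chosen by a difference from the same 4 DMSO arrays. For Bzrap1 the test is therefore not independent of the choice. The downstream genes were chosen by a high level with LPS and cordycepin, which also favours genes that cordycepin raises at rest. Their test is not fully independent either, and the counts of genes below may partly follow from the choice. By limma over the 21597 probes, Bzrap1 rose 6.92-fold (log2 change 2.79, SE 0.19, adjusted p = 6.94e-08), in 4 of 4 replicates. Mpo rose 4.06-fold (2.02, SE 0.20, adjusted p = 2.36e-06), also in 4 of 4, with 2 of the 4 DMSO arrays well above background. Fam71a and Gm16486 entered the fit through LPS+cordycepin alone and were near background here, so the calls are 2 among the other 8 genes, and 5.55% of all probes were called higher in this comparison. The Bzrap1 change was 2.49 within slide 1 and 3.09 within slide 2, and that of Mpo was 1.81 and 2.24. With the normexp correction Mpo changed by 0.76, below 2-fold.

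The remaining 6 of these 8 genes did not reach 2-fold at an adjusted p under 0.05. Atf3 fell by 0.99 on the log2 scale (SE 0.15, limma adjusted p = 0.000206), just inside 2-fold, and was lower in 4 of 4 replicates. Icam5 was higher by 0.69 (SE 0.16, adjusted p = 0.00675) and C5ar2 by 0.55 (SE 0.12, adjusted p = 0.00336), each in 4 of 4 replicates. With the normexp correction these changes were 0.3 for Icam5 and 0.19 for C5ar2. From the authors' log2 values they were 0.42 and 0.24. Among the alternative settings the limma adjusted p reached 0.621 for Icam5 and 0.831 for C5ar2. In the main fit adjusted p alone was under 0.05 with a higher level for 4 of the 8 genes, Icam5 and C5ar2 included, against 9.71% of all probes. C5ar1 changed by 1.01 (SE 0.49, adjusted p = 0.191), and by 0.36 without the high array of cordycepin replicate 1, so 1 array decides its size. Icam1 (0.29, limma adjusted p = 0.175) and Jund (-0.14, adjusted p = 0.803) did not pass the test. Of the 8 arrays without LPS, 1 of DMSO measured Fam71a above background and none measured Gm16486.

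Probes near the pairs show which other transcripts moved. From 50 kb before to 50 kb after the pairs the array has 34 further probes, of which 23 passed the filter. With cordycepin under LPS 4 of the 23 were called higher and the median change was 0.06, beside 7.11% and 0.03 over all probes. Of the 4, 3 are on the strand of the pair, out of 12 tested there, and 1 is on the opposite strand, out of 11. Among these 3, Icam4 lies within a pair and 1 probe is described by the array as part of Bzrap1. Both passed the filter through LPS+cordycepin alone, so they are not separate from the choice of the pairs.

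Icam4, the gene between Icam1 and Icam5, encodes an adhesion molecule of red blood cells. It read 3.90, 4.74, 2.35 and 4.00 in DMSO, 3.16, 3.88, 4.76 and 4.17 in cordycepin and 4.72, 5.18, 5.69 and 4.59 in LPS+DMSO, and was well above background on 2 of these 12 arrays. In LPS+cordycepin it read 7.71, 7.87, 8.03 and 8.11, well above background and above all others. With cordycepin under LPS it was called higher, with a fitted change of 2.89 (SE 0.42, limma adjusted p = 9.21e-05), or 2.84 and 2.93 within slides and 1.31 with normexp. The size rests on LPS+DMSO values of which 1 of 4 was well above background, and the probe passed the filter through LPS+cordycepin alone. At rest its cordycepin change was 0.24 (SE 0.42, adjusted p = 0.770), and the difference between the 2 changes was 2.64 (SE 0.60), which did not pass after adjustment (limma adjusted p = 0.0711), where 0.343% of all probes were called.

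Zglp1, a GATA-like zinc finger gene on the opposite strand 34.6 kb from the Icam1 probe, rose with cordycepin both under LPS (1.69, SE 0.19, adjusted p = 6.5e-06) and at rest (1.35, SE 0.19, limma adjusted p = 8.02e-05). Its change with LPS alone was 0.22 (adjusted p = 0.559). Before Bzrap1 on the same strand, A430104N18Rik rose by 1.56 (SE 0.21, limma adjusted p = 4.12e-05) under LPS and by 1.75 (SE 0.21, adjusted p = 1.82e-05) at rest. A probe named TC1653612, which the array describes as a fragment of Bzrap1 and which lies 4.5 kb before the Bzrap1 probe, was at least 3.3-fold higher with cordycepin at rest than in DMSO, where it was not well above background (fitted change 3.35, SE 0.47, limma adjusted p = 9.35e-05). With normexp this change was 1.04. The probe passed the filter through LPS+cordycepin alone, the only group with all 4 arrays well above background. Under LPS it was higher by 1.79 (SE 0.47, limma adjusted p = 0.0126), a call that was lost with normexp (0.63), in the authors' table (0.95), without replicate 2 (1.19), without replicate 3 (1.95) and within slide 2 (1.28). It was at least 1.23-fold higher with LPS alone than in DMSO (limma adjusted p = 0.0111), where the groups overlapped, 3 of 4 replicates were higher and 2 of the 4 LPS+DMSO arrays were well above background. In the comparison at rest these 3, all higher, were the called probes of the 23, beside 5.55% of all probes called higher. By the array's description TC1653612 is part of the member Bzrap1.

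No tested probe on the strand of the pairs beyond the downstream genes was called with cordycepin. The only such probes were those of Dhx34, Pde4c and Rab3a, and none lay within 50 kb behind Icam5, Mpo or Fam71a. Behind C5ar2 on the same strand, Dhx34 changed by 0.07 with cordycepin under LPS, and before C5ar1, Ccdc9 changed by -0.62. At the Jund locus Lsm4 before it changed by 0.12 and Pde4c behind Gm16486 by -0.19. A probe on the opposite strand beside Jund (ENSMUST00000116172) was lower by 1.06 with cordycepin at rest (SE 0.42, limma adjusted p = 0.103), which did not pass. With LPS in the presence of cordycepin it was at least 1.79-fold higher than in cordycepin, where it was not well above background (limma adjusted p = 0.0307), and the groups overlapped. In that comparison 1.64% of all probes were called higher. No probe near Atf3 and Fam71a other than their own lies within 50 kb.

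**Figure D3:**
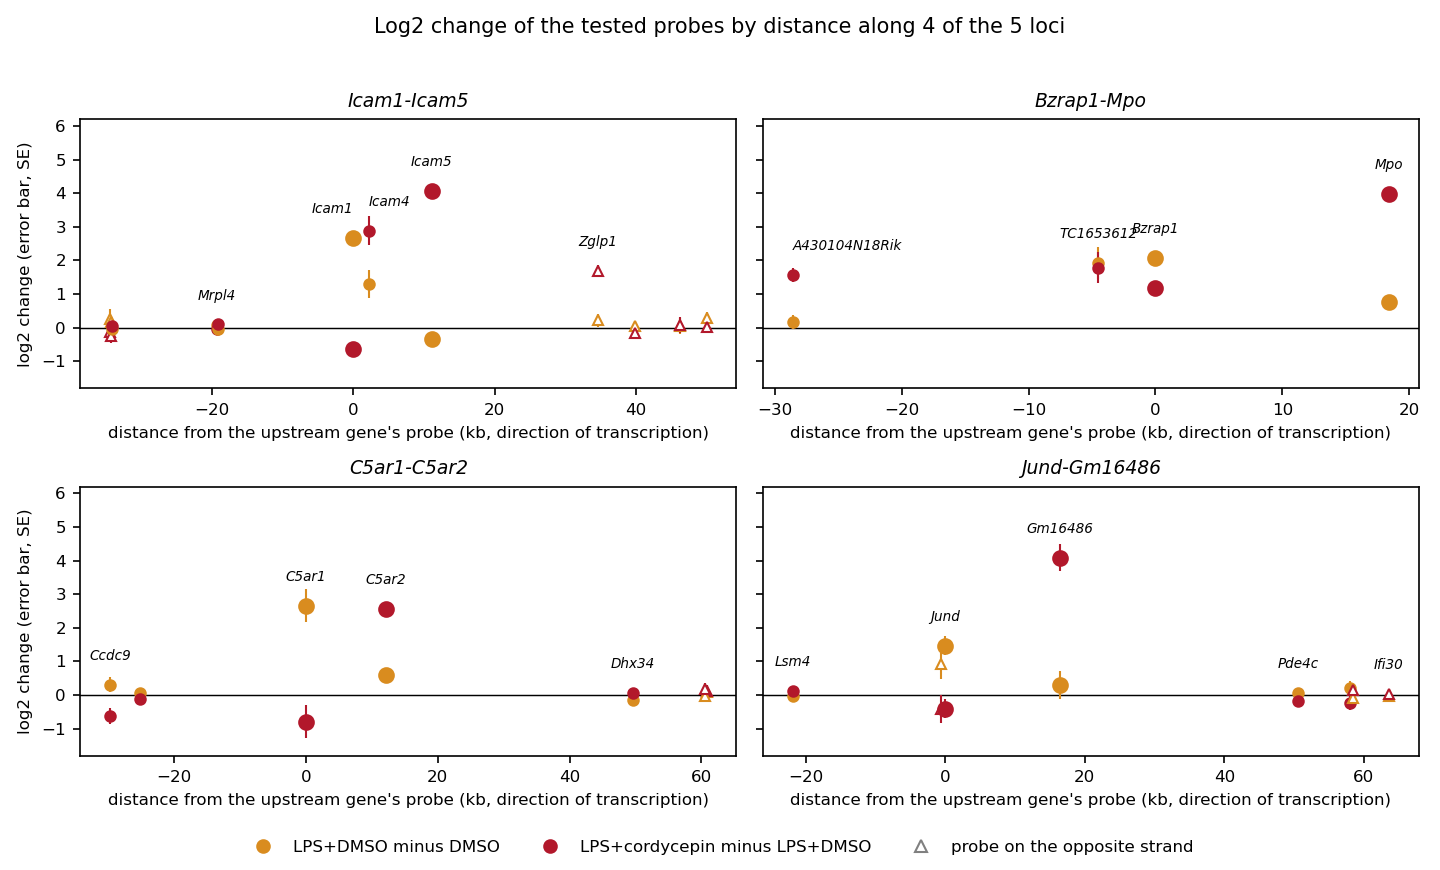
Fitted log2 change of every tested probe by its distance in kb from the probe of the upstream gene, in the direction of transcription, at 4 loci. Orange is LPS+DMSO against DMSO, red is LPS+cordycepin against LPS+DMSO, open triangles are probes on the opposite strand and error bars are 1 SE. At the Icam locus the red points rise from -0.64 at Icam1 to 2.89 at Icam4 and 4.08 at Icam5, with Zglp1 at 1.69 further on.

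The pairs were set beside all genes with a neighbour arranged in the same way. Of 245 named genes that LPS raised, 76 had a tested gene downstream on the same strand within 50 kb, and 13 of these neighbours (17.1%) were called higher with cordycepin under LPS. Behind the other genes tested it was 316 of 3481 (9.08%). Upstream on the same strand it was 8 of 103 (7.77%) for genes raised by LPS and 181 of 3400 (5.32%) for the others. The 13 include Fam71a, C5ar2, Mpo and Gm16486, and Icam4 as the nearest gene behind Icam1, so they partly restate how the pairs were chosen. Without the 4 member genes it was 9 of 72 (12.5%), and without Icam4 as well 8 of 71 (11.3%). These shares are a description with no test.

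The 8 other downstream genes, which are named after their values were seen, were Lsmem1 behind Ifrd1, Tmem88 behind Kdm6b, Cpne9 behind Mtmr14, Astl behind Dusp2, Matn4 behind Sdc4, Fam71f2 behind Hilpda, Eva1b behind Stk40 and Plekhg2 behind Zfp36, with changes of 1.01 to 2.81. Of these 8 genes 4 were also called higher with LPS alone, as no downstream member was, namely Tmem88 (5.04), Cpne9 (2.84), Astl (2.21) and Matn4 (1.13). Most of the 13 were dim, with C5ar2 and Plekhg2 well above background on all 16 arrays. Where both the LPS-raised gene and its neighbour had to be well above background on all 16 arrays, which leaves out C5ar1 (14 arrays) and Zfp36 (11 arrays) and so their neighbours, 37 neighbours were tested and none was called higher by limma, with 4 higher at an unadjusted p under 0.05. Of the 76 neighbours 2 were called lower, Tnf behind Lta (-1.07) and Ccl7 behind Ccl2 (-2.12), which are themselves raised by LPS.

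**Figure D4:**
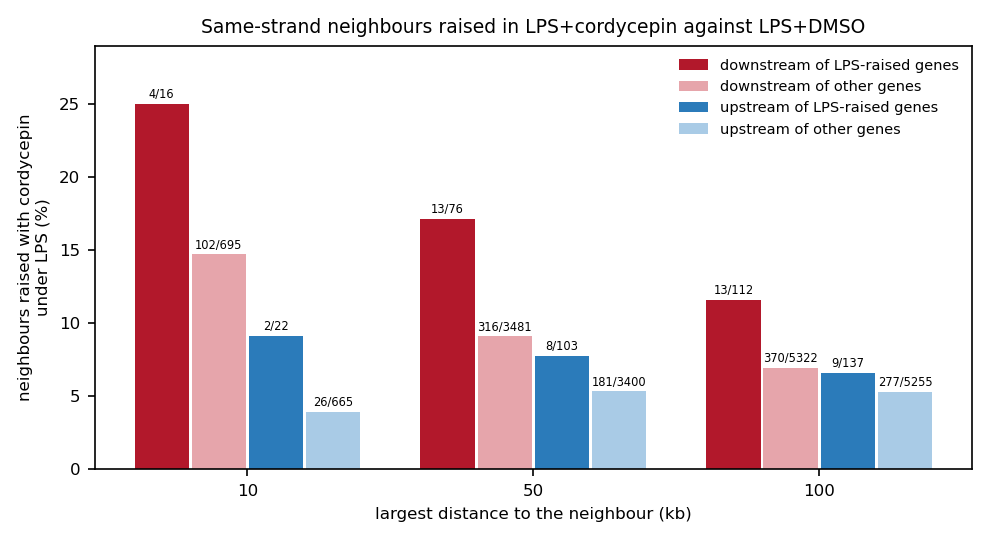
Share of same-strand neighbours called higher in LPS+cordycepin against LPS+DMSO, by the largest distance allowed, for neighbours downstream (red) and upstream (blue) of genes raised by LPS (dark) and of other genes (light). Numbers above the bars are neighbours called over neighbours tested, such as 13 of 76 downstream within 50 kb. These 13 include Fam71a, C5ar2, Mpo and Gm16486. The nearest gene behind Icam1 is Icam4, which is counted in place of Icam5.

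Genes for 3′ end processing and termination of transcription were examined because their products act at the ends of all these transcripts. Of 31 such genes, 30 were tested. The list was drawn up with earlier results of these data known, so its tests and counts are not independent of the choice. Cdk12, a kinase of the RNA polymerase II tail, fell by 1.93 with cordycepin at rest (SE 0.18, limma adjusted p = 1.95e-06) and by 1.88 under LPS (SE 0.18, adjusted p = 1.77e-06). Papolg, a nuclear poly(A) polymerase, fell by 1.73 and 1.74 (SE 0.16 each, adjusted p = 1.86e-06 and 1.28e-06, limma). Scaf8, which binds the polymerase tail and acts against early termination, fell by 1.57 and 1.38 (SE 0.13 each, adjusted p = 5.1e-07 and 1.28e-06, limma).

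These 3 were the genes of the list called in either comparison with cordycepin, both times lower, where 1.08% and 1.61% of all probes were called lower. The list median was 0.08 at rest and 0.05 under LPS, beside 0.04 and 0.03 over all probes. By adjusted p alone 4 rose and 5 fell at rest, beside 9.71% and 7.05% of all probes. LPS alone raised Ppp1r10, a subunit of the phosphatase complex that slows polymerase at poly(A) sites, by 1.41 (SE 0.13, limma adjusted p = 1.85e-06). All other listed genes that were tested were within 2-fold in all 3 comparisons.

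Over the 16 arrays the genes most like the mean profile of the 5 downstream genes were Crabp2 (r = 0.961), Necab2 (0.958), Prph (0.955), Cd79a (0.949) and 1700001P01Rik (0.947). Crabp2, a binding protein for retinoic acid that was detected on all 16 arrays, changed by 0.64 with LPS and by 1.97 with cordycepin under LPS. Prph, peripherin of neuronal intermediate filaments, was detected above background on 4 of 4 arrays of LPS+cordycepin and on 2 of the other 12. The nearest to the 5 upstream genes were Pde4b (r = 0.978), Bcl3 (0.973), Marcksl1 (0.972), Phlda1 (0.970) and Tnfaip3 (0.968). Their LPS changes ran from 1.36 for Bcl3 to 5.24 for Tnfaip3, and their cordycepin changes under LPS from -0.97 for Marcksl1 to -0.31 for Bcl3. These correlations are descriptions over arrays that share the 4 groups.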

How the data were processed

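Log2-scale levels were computed from the scanner files of 16 single-colour Agilent arrays of RAW 264.7 cells, 4 groups of 4. The deposited intensity is the processed signal that the authors obtained with Feature Extraction (version 10.10.1.1 per the submitters' processing notes, 10.7.3.1 per the file headers), after subtraction of background and before normalization between arrays. The authors also deposited a table of log2 values, whose normalization is not given in the sources used here. It was used as an alternative only.

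Outlier spots were left out (127 missing values), spots of a probe were averaged, and arrays were scaled to the 75th percentile of the 18064 probes that every array detected above background. Probes detected by all 4 arrays in any group were tested (21597). A model with 4 group means was fitted in limma 3.58.1 (R 4.3.3) with Benjamini-Hochberg adjustment of p over these probes, and a call needed both a 2-fold change and an adjusted p under 0.05. Files were read and plots drawn in Python 3.11.15 (numpy 2.4.6, pandas 2.3.3, matplotlib 3.10.9), and the fit was tested on simulated data. RefSeq named 31377 probes and 24304 kept the name of the array.

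The members and lists were chosen with earlier results of these data known. A marker gene of the list for other cell types is not reported here. The genes named are all members, flanking genes that were called or lie between members, listed 3′ end genes that were called, and the 5 genes most correlated with each set of members. Others are named where the text says that their values were seen first.

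The labels give every replicate number a day of its own, so the numbers pair the cultures. The mean correlation of residuals was 0.21 (-0.14 to 0.52) between arrays of one number, 0.20 between other arrays of a slide and -0.20 across slides. The main fit has no block. The number of arrays limits the precision. Alternatives were other scalings and background corrections, the authors' table, other filters, the brightest probe per gene, blocks for replicate and slide, each slide alone, a robust fit, 2 groups alone, no minimum fold, other distances, and fits without each replicate or array.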

Additional observations from a re-analysis of the deposited data

Results flagged for a closer look

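Of the 48 sets of 4 arrays (12 probes in 4 groups) 3 had 1 array far from the other 3, which is 6.25%, where chance gives about 1 in 20. The dimmer C5ar2 probe read 6.29 on the LPS+cordycepin array of replicate 2, against 5.55 to 5.64 on the others. The brighter C5ar2 probe read 6.71 on the cordycepin array of replicate 1, against 6.95 to 6.98. Jund read 14.19 on the LPS+DMSO array of replicate 4, against 13.33 to 13.43.

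Icam5 was lower with LPS in all 4 replicates without cordycepin and higher in all 4 with it, and the LPS difference was 3.39 larger with cordycepin on the log2 scale. The difference was not tested, since Icam5 was chosen for it.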

How the results depend on the processing

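The 2 member probes called with cordycepin at rest became 1 with normexp or with the filter on all 16 arrays and 5 with no minimum fold, and were 2 to 3 when an array or a replicate was left out, Atf3 being the third at about 2-fold. Of the flanking probes, the 4 called with cordycepin under LPS became 2 in the authors' table and 2 with the filter on all 16 arrays, and ranged from 3 to 4 with arrays left out. The 3 called at rest became 2 with the filter on all 16 arrays and ranged from 3 to 4 with arrays left out. The 13 downstream neighbours became 7 in the authors' table, 0 with the filter on all 16 arrays (limma, 4 higher at an unadjusted p under 0.05), 8 within slide 1, 26 with no minimum fold and 4 within 10 kb, and ranged from 11 to 14 with arrays left out. Spike-in scaling gave 9 of these neighbours and normexp 11. Without the member genes as neighbours, an alternative chosen after seeing the data, there were 9. The 3 genes for 3′ end processing became 9 with no minimum fold and stayed at 3 with arrays left out. The filter on all 16 arrays removes every probe that was near background in any group, which holds for 4 of the 5 downstream genes, and the cause of the other differences was not tested. With a replicate block, which pairs cultures of one day, the counts were 2, 4, 3, 13 and 3, and no call on a member or flanking probe changed. No tested alternative reversed a called change of a member or a flanking probe. Dim probes limit the results, since changes of Fam71a, Gm16486 and Icam4 are measured against values at background.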
